A study of Mus musculus with 12 samples.

Results

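Resting mouse embryonic fibroblasts (MEFs) that lacked both Ulk1 and Ulk2 (Ulk1/2-/-, double knockout, DKO) were compared with MEFs that carried both genes (Ulk1/2+/+, wild type, WT). The untreated cells gave 6 of the 12 arrays of the series, 3 of DKO and 3 of WT, all labelled as C57BL/6J. The remaining arrays, 3 of DKO and 3 of WT, came from cells given mouse interferon beta (IFNβ) at 2500 IU/ml for 6 h, and are used below only where that is said. The genes described were the 8226 autosomal genes whose probe was detected (detection p under 0.01) on at least 3 of the 6 untreated arrays, out of 8898 genes tested and 18254 autosomal genes named on the array. A further 378 autosomal genes were tested but were not detected on 3 untreated arrays. The labels do not say how many embryos, clones or cultures stand behind a genotype, so p-values measure the spread between samples that may be technical replicates, and any other difference between the 2 cell preparations cannot be told apart from the genotype.

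ULK1 and ULK2 are related serine/threonine kinases that start autophagy, the process that wraps cell contents in a membrane and delivers them to lysosomes. They act in a complex with the scaffold RB1CC1 and the adaptors ATG13 and ATG101, upstream of the lipid kinase and conjugation systems that build the autophagosome. Embryonic fibroblasts are mesenchymal cells that secrete collagen-rich matrix, and they keep in culture much of the Hox code of the body region they were taken from. Type I interferon acts through its receptor and the JAK kinases, and its target genes often carry the interferon-stimulated response element, a repeat of GAAA.

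Sequences are shown first for genes that carry 2 of the results below. The RefSeq promoter windows (GRCm38.p6, 250 bases before to 50 after the annotated start) are given 5′ to 3′ for 3 interferon-stimulated genes that were higher in resting DKO cells, with matches to GAAANNGAAA, on either strand, in capitals. Isg15 lies at chr4:156200769-156201068 and Oas1g at chr5:120887564-120887863, both on the minus strand, and Irgm2 lies at chr11:58214727-58215026 on the plus strand.
Isg15: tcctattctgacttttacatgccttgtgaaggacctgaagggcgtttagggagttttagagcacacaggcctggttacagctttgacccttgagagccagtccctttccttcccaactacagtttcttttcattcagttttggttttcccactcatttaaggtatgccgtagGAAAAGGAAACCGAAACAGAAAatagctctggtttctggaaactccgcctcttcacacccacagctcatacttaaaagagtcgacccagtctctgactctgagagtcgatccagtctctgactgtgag
Oas1g: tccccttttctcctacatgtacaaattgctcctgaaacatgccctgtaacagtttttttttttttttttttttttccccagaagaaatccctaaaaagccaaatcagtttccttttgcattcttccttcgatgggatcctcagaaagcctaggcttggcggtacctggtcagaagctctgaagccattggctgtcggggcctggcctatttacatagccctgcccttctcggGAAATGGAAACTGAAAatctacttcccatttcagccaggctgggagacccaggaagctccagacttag
Irgm2: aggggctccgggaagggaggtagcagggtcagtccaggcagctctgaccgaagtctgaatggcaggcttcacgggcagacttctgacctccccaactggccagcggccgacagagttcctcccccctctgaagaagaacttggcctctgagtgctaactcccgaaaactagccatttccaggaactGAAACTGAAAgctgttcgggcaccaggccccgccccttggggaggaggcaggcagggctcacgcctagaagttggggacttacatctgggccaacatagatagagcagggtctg
The Isg15 window held 3 overlapping matches, the Oas1g window 2 overlapping matches and the Irgm2 window 1. A match was present in the windows of 17 of 35 antiviral or GTPase genes that were higher in untreated DKO cells and had a window in the table (48.6%), against 3.99% of all 27025 genes with a window and 3.54% of 6744 genes of the detected autosomal set. Over the whole of both lists, called or not, it was 19 of 41 genes (46.3%). The 35 genes are most of these 41, so the 2 shares cannot show whether a match goes with the call. A match is a description of the letters and not evidence of binding.

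The second set is the pair of windows of the type IV collagen genes Col4a1 (chr8:11312777-11313076, minus strand) and Col4a2 (chr8:11312555-11312854, plus strand), which are transcribed away from each other. The 78 bases that the 2 windows share are in capitals in both and are reverse complements.
Col4a1: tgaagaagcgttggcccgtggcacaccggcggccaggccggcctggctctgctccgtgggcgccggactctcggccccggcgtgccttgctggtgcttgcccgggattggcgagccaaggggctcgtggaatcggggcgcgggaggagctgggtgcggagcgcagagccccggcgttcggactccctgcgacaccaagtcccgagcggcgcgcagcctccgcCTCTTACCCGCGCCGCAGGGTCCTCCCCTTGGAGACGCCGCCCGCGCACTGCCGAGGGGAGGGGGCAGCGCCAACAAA
Col4a2: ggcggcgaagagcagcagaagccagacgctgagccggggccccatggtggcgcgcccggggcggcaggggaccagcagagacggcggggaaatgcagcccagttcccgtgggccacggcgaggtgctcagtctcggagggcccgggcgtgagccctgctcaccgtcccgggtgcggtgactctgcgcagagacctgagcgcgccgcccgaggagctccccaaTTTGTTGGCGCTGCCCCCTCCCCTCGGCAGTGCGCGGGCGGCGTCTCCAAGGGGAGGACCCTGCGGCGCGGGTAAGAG
These 2 genes showed nearly the same difference between the genotypes, as given below.

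The 6 arrays had 14323 to 15240 probes detected, of 45281. The first principal component of the 6 untreated arrays held 78.2% of the variance and parted the genotypes, and the second held 12.1% and parted arrays by their raw median intensity. That median was 87.9 on DKO array 1 and 97.7 and 98.0 on DKO arrays 2 and 3, against 86.7, 86.5 and 97.5 on WT arrays 1, 2 and 3, so that each genotype had arrays in a lower and a higher set. The labels give no batch for these sets. Of the 42 mesenchyme and fibroblast markers listed, 38 were on the array, 22 were detected on all 3 DKO arrays and 24 on all 3 WT arrays. Several defining markers of other lineages were not detected on any of the 6 arrays, among them Ptprc, Adgre1 and Itgam (leukocytes), Pecam1, Cdh5 and Tek (endothelium), Epcam (epithelium), Myod1 and Pax7 (muscle), Adipoq (fat), and Pou5f1 and Nanog (pluripotent cells). Of the whole lists, 2 of 16 leukocyte markers on the array were detected on all 3 DKO arrays and on all 3 WT arrays, which were Cd3e and Cd14. The same held for 2 of 15 endothelial markers, Flt1 and Egfl7, and for 5 of 18 adipocyte markers, Agpat2, Cebpb, Cebpd, Dlk1 and Plin2. Of 18 pluripotency and germ cell markers, 1 was detected on all 3 DKO arrays (Klf2) and 2 on all 3 WT arrays (Klf2 and Sox2). Cd3e was at 6.93, 6.60 and 7.20 log2 units on the DKO arrays, against 5.58, 5.76 and 5.57 on the WT arrays. Flt1, a VEGF receptor, was at 7.72, 7.71 and 7.52 on the DKO arrays, against 5.99, 6.39 and 6.04 on the WT arrays. Spi1, Esam and the adipocyte marker Pparg were detected on 2 DKO arrays and on no WT array. Lpl, also of the adipocyte list, was detected on 2 WT arrays and on no DKO array. The sex-linked genes, which lie outside the autosomal set, also differed. Xist, the X-inactivation transcript, was at 6.96, 7.70 and 7.24 log2 units on the DKO arrays, against 4.19, 4.30 and 4.39 on the WT arrays, where it was not detected. The Y-linked Eif2s3y was at 4.40, 4.24 and 4.29 on the DKO arrays, where it was not detected, against 7.74, 8.07 and 8.63 on the WT arrays. The sex of the 2 cultures and their genotype therefore cannot be told apart.

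The comparison of untreated DKO with untreated WT cells asked how the resting transcriptomes differ. Ulk1 was at 4.55, 4.47 and 4.55 log2 units of normalised intensity on the DKO arrays, against 6.63, 6.80 and 6.49 on the WT arrays. It was not detected on any DKO array and was at least 3.44-fold lower there (log2 difference -2.11 ± 0.12 SE, limma adjusted p = 8.7e-09, n = 3 per genotype). Ulk2 was at 4.39, 4.20 and 4.30 on the DKO arrays, where it was not detected either, against 6.39, 6.46 and 6.15 on the WT arrays. It was at least 2.78-fold lower in DKO cells (limma adjusted p = 8.6e-08). Both targeted transcripts followed the labels on all 6 arrays. The deleted part of each gene and the place of the probes in it are not known here.

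Of the 8226 genes, 1286 were higher (15.6%) and 1539 were lower (18.7%) in DKO cells at a limma adjusted p under 0.05, with adjustment over all 8898 genes tested, so that 34.3% were called in all. Most differences were small. The median was -0.04 log2 units, the 10th percentile was -0.51 and the 90th 0.55, and 38.7% of the called genes differed by less than 0.5 log2 units. A difference of at least 2-fold was called for 308 higher and 230 lower genes (6.54% of all), and one of at least 4-fold for 67 higher and 55 lower genes. With the array set as a block, 1638 genes were higher and 1949 lower. Within the lower set alone (DKO array 1 against WT arrays 1 and 2) the counts were 811 and 699, and within the higher set alone (DKO arrays 2 and 3 against WT array 3) they were 1188 and 1220. The lone array of each set was assumed to vary like the other groups.

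A large part of the strongest differences was between detection and none. There were 152 genes detected on all 3 DKO arrays and on no WT array, and 126 detected on all 3 WT arrays and on no DKO array. Fold changes of such genes are given as lower bounds, "at least N-fold", which compare the brighter genotype with the faintest detected signal on the arrays of the other. The 7253 genes detected on all 6 arrays included 1044 called higher and 1319 called lower.

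The 15 largest rises among genes detected on all 6 arrays were led by Csrp1, which encodes a LIM-domain protein of the actin cytoskeleton. Csrp1 was at 11.14, 11.06 and 11.11 log2 units on the DKO arrays, against 5.62, 5.68 and 5.90 on the WT arrays, 41.3-fold higher (log2 difference 5.37 ± 0.15 SE, limma adjusted p = 7.6e-12). Col4a1 was at 11.91, 11.74 and 11.72 on the DKO arrays, against 7.29, 7.28 and 7.30 on the WT arrays (22.6-fold higher). Col4a2 was at 11.65, 11.40 and 11.45 on the DKO arrays, against 7.25, 7.01 and 6.80 on the WT arrays (22.3-fold higher). The products of these 2 neighbouring genes form the heterotrimer of basement membranes. Their levels did not overlap between the genotypes, which also held for 46.5% of the 8226 genes and for 2748 of the 2825 called ones.

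The other large rises held transcription factors, adhesion and growth-control genes. The Iroquois homeobox gene Irx2 rose by 2.97 log2 units, Gata6, a zinc-finger factor of mesoderm and endoderm, by 2.50, and Igf2bp3, a fetal mRNA-binding protein, by 2.48. Mcam, an adhesion molecule of perivascular cells, rose by 2.88, and its 2 other probes gave 2.70 and 2.55. Gpnmb (a transmembrane glycoprotein), St6gal1 (a sialyltransferase), Srgap3 (a Rac GTPase-activating protein) and Glipr1 rose by 2.78, 2.74, 2.41 and 2.37 log2 units. Other probes were called the same way but differed in size. They gave 0.65 to 2.43 for Igf2bp3, 1.27 for Gpnmb, 0.82 for Srgap3 and 3.42 for Irx2. The interferon-stimulated genes Ifi27l2a and Oasl2 and the imprinted genes Ndn and Cdkn1c complete the 15 and are described with their groups.

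Stmn2, a tubulin-binding protein best known from neurons, led the falls among genes detected on all 6 arrays. It was at 5.52, 5.53 and 5.54 log2 units on the DKO arrays, against 10.75, 10.42 and 10.19 on the WT arrays, 30.4-fold lower (log2 difference -4.92 ± 0.14 SE, limma adjusted p = 1.1e-11). Cyp1b1, a cytochrome P450 that oxidises retinoids and estrogens, was at 5.42, 5.4 and 5.46 on the DKO arrays, against 9.30, 9.41 and 9.94 on the WT arrays (17.4-fold lower). Tnfrsf11b, which encodes osteoprotegerin, the decoy receptor for RANKL, was at 5.93, 5.66 and 5.57 on the DKO arrays, against 9.36, 9.71 and 9.42 on the WT arrays (13.7-fold lower). In each of the 3 genes every DKO array was more than 3 log2 units below every WT array.

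Among the other large falls were Medag (log2 difference -3.69) and Lrba (-3.17), the connexin gene Gjb2 (-3.02), the transcription factor Tfap2a (-2.82) and the adhesion glycoprotein Emb (-2.79). Pclaf, a partner of the replication clamp PCNA, fell by 2.49 log2 units and Pxylp1, a xylose phosphatase of proteoglycan synthesis, by 2.47. The secreted regulators Igfbp5 (-2.43, with -2.23 and -2.37 from its other probes), Gdnf (-2.43) and Ccn5 (-2.42) were lower as well. DKO array 3 was lowest and DKO array 1 highest within the DKO group for Igfbp5, at 7.30 and 8.42, and all 3 DKO arrays stayed below the WT arrays, which were at 10.29 to 10.61.

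**Figure D1:**
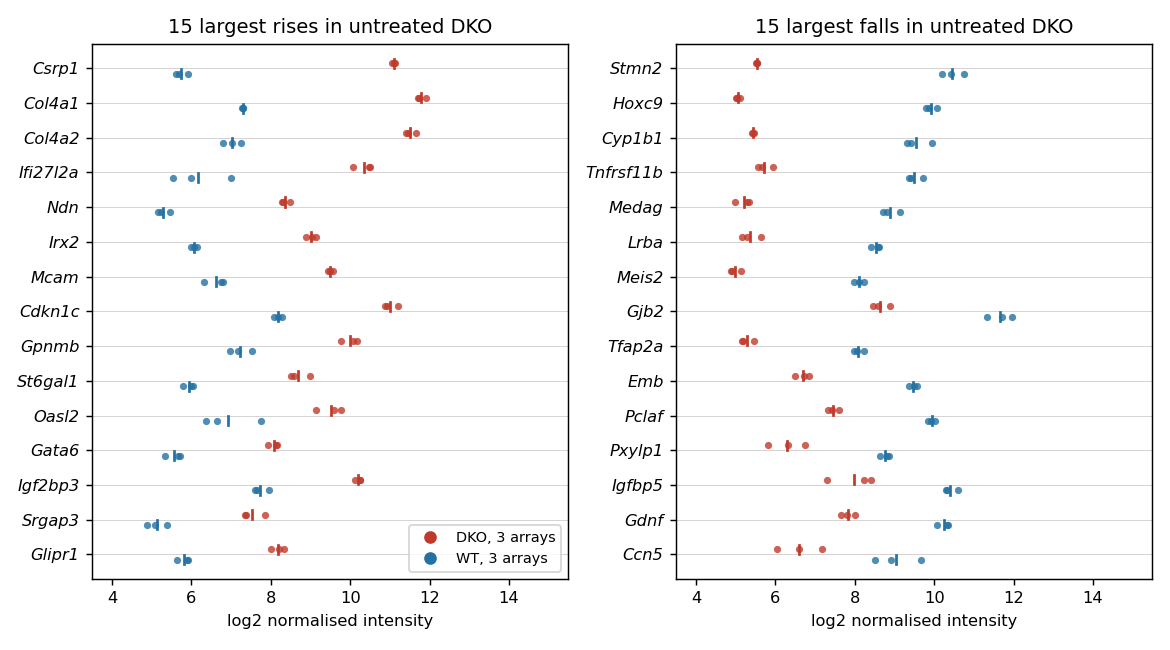
Log2 normalised intensity of the 15 genes with the largest called rises (left) and the 15 with the largest called falls (right) among genes detected on all 6 untreated arrays. Each point is 1 array, DKO above WT in each row, and the short bar is the group mean. In every row the 3 DKO points lie apart from the 3 WT points, as in 46.5% of all 8226 genes. The gap between means reaches 5.37 log2 units for Csrp1.

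Genes detected in 1 genotype alone gave the largest lower bounds. In the DKO direction these were Siglecg (at least 9.68-fold), Snurf (8.99), the T-cell and trophoblast factor gene Gata3 (8.09) and Krt19, a keratin of simple epithelia (7.90). Siglecg, best known as an inhibitory sialic acid receptor of B cells, was at 8.02, 8.10 and 8.43 log2 units on the DKO arrays, against 4.45, 4.74 and 4.59 on the WT arrays, and its other probe also was detected on the 3 DKO arrays only. Ly6c1, Galnt18, Ccdc68, Hoxd10, Zfp985, Ralyl, Ripk4 and B3gnt5 followed with bounds of 4.14-fold to 6.84-fold.

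In the WT direction the bounds were larger. Klra4, a lectin-like receptor of the Ly49 family of natural killer cells, was at 4.33, 4.18 and 4.17 log2 units on the DKO arrays, against 9.36, 9.59 and 9.56 on the WT arrays, and was at least 25-fold lower in DKO cells. The Ly49 genes are a family of near-identical copies, so the signal may come from more than 1 of them. Car12, a membrane carbonic anhydrase, was at least 15.8-fold lower, Pdgfra, the receptor for platelet-derived growth factor that marks mesenchyme, at least 13-fold, and the neural factor Sox21 at least 11.2-fold. Hoxc6 and Hoxc10 belong to the same set. Adh7, Foxq1, Il1rn, Esm1, Cptp and Ctsc followed with bounds of 4.53-fold to 6.39-fold.

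Called genes were spread unevenly over the chromosomes. Chromosome 5 had 56 genes higher and 208 lower of 556, chromosome 11 had 54 higher and 211 lower of 701, and chromosome 12 had 20 higher and 92 lower of 275. Chromosome 7 was the reverse, with 173 higher and 39 lower of 612. On the other 15 autosomes together 983 genes were higher and 989 lower of 6082, which is 32.4% called.

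The shift was one of the whole distribution and not of a few genes. The median log2 difference was -0.24 on chromosome 5, -0.19 on chromosome 11, -0.21 on chromosome 12 and 0.18 on chromosome 7, against medians of -0.07 to 0.06 on the other 15 autosomes. Set against the mean of the WT arrays, the chromosome 5 median was -0.22, -0.25 and -0.27 on DKO arrays 1, 2 and 3, and the chromosome 7 median was 0.18, 0.16 and 0.18. For chromosome 11 the same values were -0.18, -0.22 and -0.21, and for chromosome 12 they were -0.20, -0.20 and -0.18. Each DKO array therefore showed each of the 4 shifts. A permutation test of 3 arrays against 3 cannot give a two-sided p below 0.10, and none was run.

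Cut into 6 blocks of equal gene number in map order, chromosome 7 had block medians of 0.14 to 0.21 and chromosome 11 of -0.25 to -0.16. On chromosome 12 they ran over -0.27 to -0.08. Chromosome 5 was not uniform, since its first block had a median of 0.06, with 20 genes higher and 11 lower of 93, while its other 5 blocks had medians of -0.34 to -0.24. The separate arrays of IFNβ-treated cells gave DKO minus WT medians of -0.22 on chromosome 5, -0.17 on chromosome 11, -0.20 on chromosome 12 and 0.17 on chromosome 7. These arrays measured RNA, and no DNA measurement was used here.

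Both targeted genes lie on chromosomes with such a shift, Ulk1 on chromosome 5 and Ulk2 on chromosome 11. Of the 20 genes of the set nearest to Ulk1 in map order, 10 on each side, 13 were lower and 1 higher in DKO cells (70% called, against 47.5% for the chromosome). Of the 20 nearest to Ulk2, 9 were lower and 2 higher (55.0%, against 37.8% for the chromosome). Over all autosomes, 45 runs of 2 to 4 adjacent genes of the set were called at least 2-fold in the same direction, a count given as a description.

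**Figure D2:**
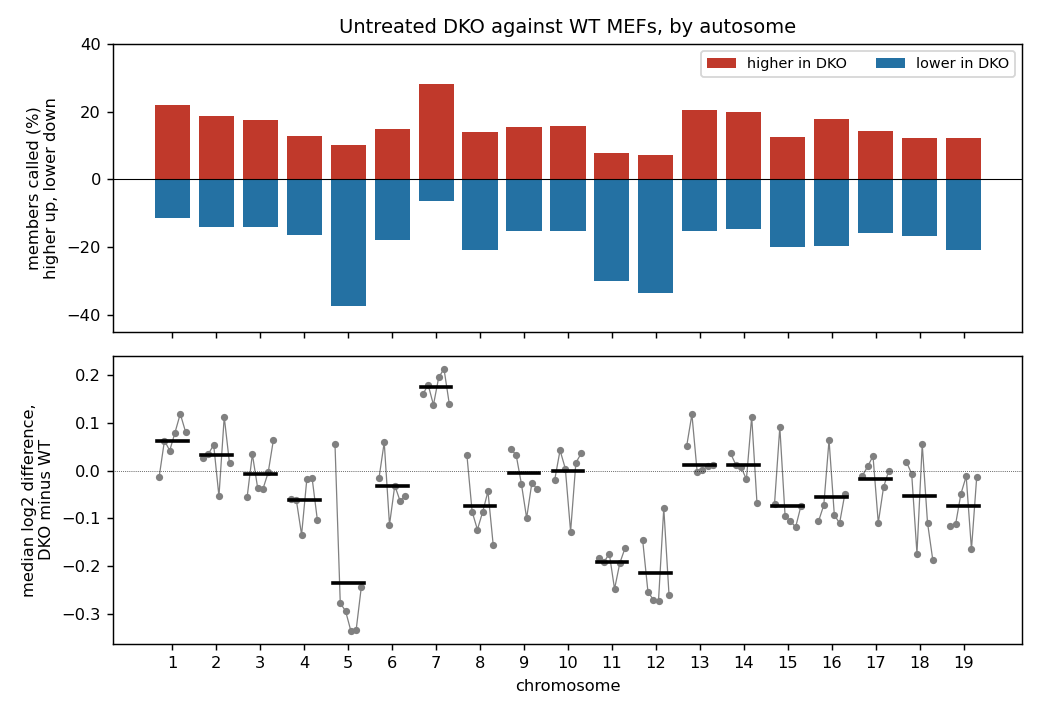
Upper panel, percentage of the genes on each autosome that were called higher (bars up) or lower (bars down) in untreated DKO cells. Lower panel, median log2 difference, DKO minus WT, of each autosome (black bar) and of 6 blocks of equal gene number along it in map order (grey points); chromosome 7 lies at 0.18 and chromosomes 5, 11 and 12 lie at -0.24, -0.19 and -0.21, while the first block of chromosome 5 is at 0.06.

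The rest of the ULK complex and the autophagy machinery are given next. Apart from Ulk1 and Ulk2, Ulk3, a related kinase, rose by 0.39 log2 units (limma adjusted p = 0.0072), while the adaptor genes Atg13 (log2 difference -0.06) and Atg101 (0.22) did not pass the test. Of 35 further autophagy genes, 3 were higher and 7 lower (28.6% called, near the 34.3% of the whole set), with a median of -0.01. Only Atg3, the E2-like enzyme that joins LC3 to lipid, differed by more than 2-fold. Atg3 was at 4.95, 5.44 and 5.04 log2 units on the DKO arrays, against 7.10, 7.24 and 7.30 on the WT arrays, 4.21-fold lower (log2 difference -2.07 ± 0.19 SE, limma adjusted p = 1.3e-06).

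Becn1, the Beclin 1 subunit of the lipid kinase complex, fell by 0.78 log2 units, but its other probe gave -0.07 and was not called. Atg16l2, Wipi2, Gabarapl1, Atg5 and Wdr45b also fell, by 0.39 to 0.76 log2 units, though the other probes of Wdr45b gave -0.39 and -0.30 and were not called. Map1lc3a, an LC3 protein of the autophagosome membrane, rose by 0.80, with 0.06 from its other probe, which was not called, and the Beclin partners Uvrag and Ambra1 rose by 0.58 and 0.52. The other probe of Ambra1 gave 0.16 and was not called, and the call of Ambra1 was lost within the lower array set alone. The cargo receptor Sqstm1 (0.25) and Map1lc3b (0.39) did not pass the test. Of the 7 genes that fell, 3 lie on chromosomes 5 or 11, and within the lower array set alone 3 autophagy genes were called lower and 1 higher. Of 42 lysosomal genes, 10 were higher and 8 lower (42.9% called, against 34.3% of the whole set, median 0.02), among them the proteases Ctsk (1.76) and Ctsc (at least 4.53-fold lower) and the membrane protein Cln3 (1.40). Without DKO array 2, or without DKO array 3, 5 of the 42 were lower, and within the lower array set alone 5 were higher and 3 lower.

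Genes that interferon induces were higher in DKO cells that had received no interferon. Of 45 antiviral interferon-stimulated genes, 35 were higher and 0 lower (limma), against 15.6% higher in the whole set, and 19 of the 35 were at least 2-fold higher. Of these 35, 25 were detected on all 6 arrays. The others were not, and a gene detected in DKO cells alone enters the set through that genotype. With only genes detected on all 6 arrays, 25 were higher and 0 lower. Of all 7253 genes detected on all 6 arrays, 1044 were higher and 1319 lower. How many listed genes were detected on all 6 arrays, called or not, is not given here, so no share is printed. The list's median difference was 0.93 log2 units, against -0.04 over all genes of the set. All 8 interferon-inducible GTPases measured were higher as well, with a median of 1.26. At an unadjusted p under 0.05, limma gave 36 higher and 0 lower genes in the antiviral list.

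Ifi27l2a, a mitochondrial and nuclear-envelope interferon-stimulated protein, was at 10.07, 10.48 and 10.49 log2 units on the DKO arrays, against 7.00, 5.54 and 5.98 on the WT arrays (18.1-fold higher, limma adjusted p = 2.7e-07). Isg15, the ubiquitin-like modifier, was at 11.34, 11.72 and 11.56 on the DKO arrays, against 9.96, 8.94 and 9.04 on the WT arrays (4.68-fold higher, limma adjusted p = 2.9e-06). Oas1g, an oligoadenylate synthetase that senses double-stranded RNA, was at 8.97, 8.99 and 8.92 on the DKO arrays, against 7.05, 6.32 and 6.43 on the WT arrays (5.13-fold higher, limma adjusted p = 1.1e-07). In each of these genes WT array 1 was the highest of the WT arrays and still lay below every DKO array.

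Oasl1 and Oasl2, which belong to the oligoadenylate synthetase family, rose by 2.71 and 2.58 log2 units, and Trim30a, of the tripartite-motif family, was at least 3.22-fold higher. Of the other probes of Oas1g, 1 gave 1.38 and was called, and both others were detected on no untreated array. Of the other probes of Oasl2, 1 gave 1.03 and was called and 1 was detected on no untreated array. The GTPases Gvin1 (2.19), Irgm2 (1.61), Gbp2 (1.49), Gbp3 (1.33), Igtp (1.19) and Ifi47 (0.98) act at the membranes around intracellular pathogens. Both other probes of Gbp2 (0.04 and 0.10, not called) and the other probe of Gvin1 (0.41, called) were detected on no untreated array. The other probe of Gbp3 gave 1.10 and was called. The Oas genes lie on chromosome 5 and Irgm2, Igtp and Ifi47 on chromosome 11, where most called genes were lower.

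WT array 1 was the highest WT array in 33 of the 35 called antiviral genes. The median of those 35 genes was 7.69, 7.57 and 7.40 log2 units on DKO arrays 1, 2 and 3, against 6.55, 6.17 and 6.30 on WT arrays 1, 2 and 3. Without WT array 1 the count stayed at 35 higher and the list's median difference was 1.04. It was 30 within the lower array set alone and 35 within the higher set alone.

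Components of the interferon pathway moved less as a group, with 7 of 31 genes higher and 5 lower (38.7% called, near the 34.3% of the whole set, median -0.01). Irf9, a DNA-binding factor of the interferon response, was at 9.05, 9.03 and 8.75 log2 units on the DKO arrays, against 8.42, 7.86 and 8.08 on the WT arrays (log2 difference 0.83, limma adjusted p = 0.00038). Irf7, an interferon-induced factor that drives interferon genes, rose by 0.87, and the feedback inhibitors Socs2 and Cish by 1.22 and 0.89, while Socs3 fell by 1.03 and the pattern receptor Tlr2 by 1.77. Without DKO array 3, 3 of the 31 were lower. Of 22 genes of MHC class I and the immunoproteasome, 6 were higher and 1 lower (31.8% called, near the 34.3% of the whole set). Their median was 0.25, but 0.09 without WT array 2, when 2 were lower, and 0.44 without WT array 1. H2-D1 rose by 0.71 log2 units and the peptide transporter Tap1 was at least 1.41-fold higher. H2 genes are near-identical copies and their probes may share signal.

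Chemokines and cytokines went mostly the other way, with 3 of 18 genes higher and 9 lower (median -0.51). That is 66.7% called, against 34.3% of the whole set. Only 5 of the 12 called were detected on all 6 arrays, and with such genes alone 2 were higher and 3 lower. The 3 that rose were Ccl5 (1.28), Cxcl10 (1.26), both also known as interferon-induced, and Ccl17 (at least 1.29-fold). Il1rn, the interleukin-1 receptor antagonist, was at least 5.74-fold lower, and Il7 fell by 2.02 log2 units. Of 16 NF-kB subunits, inhibitors and targets, 6 were lower and 1 higher, which is 43.8% called against 34.3% of the whole set. Those lower included Tnfaip2 (-2.09), Traf1 (at least 2.25-fold) and the inhibitor Nfkbia (-0.70, with -0.56 from another probe, not called). Tnfaip3 was higher (1.24).

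**Figure D3:**
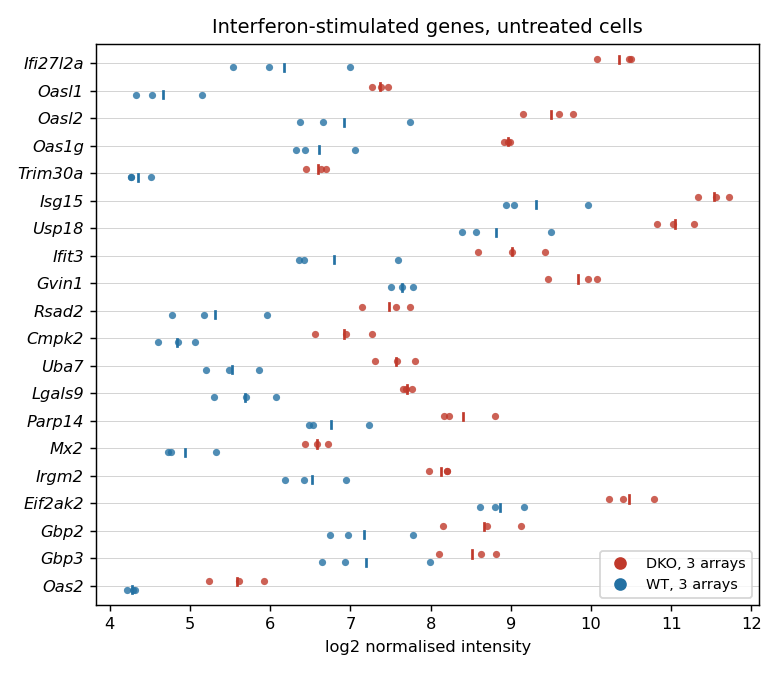
Log2 normalised intensity of the 20 antiviral or GTPase genes with the largest called differences in untreated cells, 1 point per array, DKO above WT in each row, with the group mean as a short bar. All rows have DKO means above WT means, and in Isg15 the 3 DKO arrays lie at 11.34 to 11.72 and the 3 WT arrays at 8.94 to 9.96.

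Hox genes differed by cluster. In the Hoxc cluster on chromosome 15, Hoxc6 was at 4.59, 4.57 and 4.48 log2 units on the DKO arrays, where it was not detected, against 8.92, 8.95 and 8.97 on the WT arrays (at least 17-fold lower). Hoxc9 was at 5.04, 5.11 and 5.01 on the DKO arrays, against 9.80, 9.88 and 10.06 on the WT arrays (29.1-fold lower, limma adjusted p = 6.3e-12). Hoxc10 was at least 6.61-fold lower. All 3 Hoxc genes of the set were thus lower in DKO cells, and the ranges of the genotypes lay over 2 log2 units apart.

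The 4 Hoxd genes of the set, on chromosome 2, were the reverse and were detected on the 3 DKO arrays and on no WT array. Hoxd10 was at 7.82, 7.55 and 7.30 log2 units on the DKO arrays, against 4.33, 4.36 and 4.24 on the WT arrays (at least 6.26-fold higher). Hoxd13, the most 5′ gene of the cluster, was at least 2.92-fold higher, Hoxd9 at least 1.95-fold and Hoxd8 at least 1.62-fold.

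In the Hoxa cluster on chromosome 6, Hoxa7 (-2.19), Hoxa5 (-1.26) and Hoxa4 (at least 1.15-fold) fell and Hoxa11 rose (0.75, limma adjusted p = 0.03), while Hoxa9 (-0.28) and Hoxa13 (0.19) did not pass. The calls of Hoxa4 and Hoxa11 were lost under 7 and 9 of the 23 other settings. Hoxb7 was at least 2.25-fold lower, and the Hox cofactor Meis2 fell by 3.14 log2 units. In all, 5 of the 18 genes of the Hox list were higher and 8 lower, which is 72.2% called against 34.3% overall. Hox genes detected in 1 genotype alone entered the set through that genotype, so this share is not a like comparison. Of the 13 called, 4 were detected on all 6 arrays. With only genes detected on all 6 arrays, 0 Hox genes were higher and 4 lower, where 32.6% of all such genes were called.

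Other genes of limb and body-region identity were in the same tables. Tbx4, a T-box factor of the hindlimb and lung, was at 4.99, 4.63 and 4.78 log2 units on the DKO arrays, of which it was detected on 1, against 8.42, 8.36 and 8.09 on the WT arrays (log2 difference -3.49). Of 26 fibroblast and mesenchyme markers, 6 were higher and 10 lower (61.5% called, against 34.3% of the whole set), with S100a4 at 2.15. The summed intensity of the whole marker list was 11136 to 12578 on the DKO arrays, against 11474 to 12331 on the WT arrays, so the totals overlapped while single markers parted the genotypes. Vim, the intermediate filament vimentin, gave more than any other marker, and without it the sums were 5181 to 5770 on the DKO arrays, against 5369 to 5615 on the WT arrays.

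Of 16 contractile and smooth muscle genes, 11 were higher and 1 lower (median 0.59), against 15.6% higher and 18.7% lower over the whole set, which is also the background of the lists that follow. Besides Csrp1, Acta1, skeletal muscle actin, was at 8.46, 8.70 and 8.62 log2 units on the DKO arrays, against 4.84, 5.04 and 5.10 on the WT arrays (12.1-fold higher). Mylk, myosin light chain kinase, rose by 2.97, Myl9 by 1.26 and Actg2 by 1.0. The other probes of Mylk gave 1.56 and 1.55 and were called. Neither Acta1 nor Mylk was detected on all 6 arrays, and the WT values of Acta1 lay near the faintest detected signal. Of the 12 called genes of the list, 9 were detected on all 6 arrays. Without DKO array 2, and within the lower array set alone, 7 of the 16 were called higher. Of 24 skeletal and cardiac muscle markers on the array, 2 were detected on all 3 DKO arrays and 1 on all 3 WT arrays, with Myod1, Pax7 and Ckm detected on none.

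Of 14 collagen genes, 5 were higher and 4 lower (median 0.01). Col18a1, a basement membrane collagen, rose by 2.02 log2 units and Col8a1 by 1.0, while the anchoring-fibril collagen Col7a1 fell by 1.10. The 4 lower collagens became 1 without DKO array 3, and 2 without WT array 1 or without WT array 3. Of 13 integrins and laminins, 7 were higher and 2 lower, including Itga3 (1.92), Lama5 (1.86) and Itga5 (1.19), with Lama2 lower (-1.07). A single gene of these 13 was lower without DKO array 2, DKO array 3 or WT array 1. Among 38 matrix glycoproteins and proteoglycans 13 were higher and 11 lower. Nid2, a basement membrane linker, rose by 1.45 and the large proteoglycan Vcan by 1.40, while the small proteoglycan Dcn was at least 2.70-fold lower.

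Few epithelial genes were detected, and Krt19 was the brightest, at 7.99, 7.71 and 7.97 log2 units on the DKO arrays. Of 18 epithelial and mesothelial markers on the array, 4 were detected on all 3 DKO arrays and 2 on all 3 WT arrays, and Epcam, Esrp1 and Krt5 on none. Krt8 and Cdh1 were detected on 2 DKO arrays and on no WT array. The 4 called, all higher, were Krt19, Krt7 (at least 1.87-fold), Krt18 (at least 1.09-fold) and Msln (0.84 log2 units). Of these, only Msln was detected on all 6 arrays, and the keratins entered the set through the DKO arrays alone. The fifth gene of the set, Cldn7, was at 4.42, 4.99 and 4.91 log2 units on the DKO arrays, against 5.26, 5.16 and 5.13 on the WT arrays. It did not pass the test (log2 difference -0.41), and 1 gene of the list was called lower with the array set as a block. The summed intensity of the list was 674 to 735 on the DKO arrays, against 402 to 415 on the WT arrays. Krt19 made up most of that gap, and without it the sums were 457 to 484 on the DKO arrays, against 379 to 389 on the WT arrays. The part of an epithelial or mesothelial cell fraction in the comparison was not tested, and in bulk RNA more cells of a type and more RNA per cell cannot be told apart.

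Several imprinted genes, which are expressed from the copy of 1 parent, differed strongly. Snurf was at 8.22, 8.03 and 7.98 log2 units on the DKO arrays, against 4.78, 4.63 and 4.49 on the WT arrays, where it was not detected (at least 8.99-fold higher). Ndn was at 8.31, 8.48 and 8.28 on the DKO arrays, against 5.16, 5.22 and 5.45 on the WT arrays (8.48-fold higher). Cdkn1c, which encodes the cyclin-dependent kinase inhibitor p57, was at 11.19, 10.87 and 10.92 on the DKO arrays, against 8.07, 8.28 and 8.18 on the WT arrays (7.06-fold higher). All 3 lie on chromosome 7, where the median shift was 0.18. Of the 13 imprinted genes of the set 6 were higher and 3 lower, including Igf2r (0.84), Igf2 (-0.68) and Dlk1 (-1.76), whose other probe was not called.

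Secreted signals and receptors differed in both directions. Wnt10a, a Wnt ligand, was at 4.99, 5.03 and 4.83 log2 units on the DKO arrays, of which it was detected on 2, against 10.15, 9.99 and 10.29 on the WT arrays (36.5-fold lower). Of 23 Wnt pathway genes 9 were higher and 3 lower, with the agonist Rspo3 at least 2.96-fold higher and the receptor Fzd7 at 1.60. Only 5 of the 12 called were detected on all 6 arrays, and with such genes alone 4 were higher and 1 lower. Genes detected in 1 genotype alone entered the set through that genotype, so the share over all 23 is not a like comparison. Of 39 growth factors and receptors 16 were higher and 10 lower, with Pdgfrl at 2.59 and Pdgfb at 1.41. Of the 26 called, 17 were detected on all 6 arrays, and with such genes alone 11 were higher and 6 lower. The TGF-beta ligands Tgfb2 (1.24) and Tgfb3 (1.5) rose and Tgfb1 fell (-1.0).

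Of 17 genes of the Notch, Hedgehog and Hippo pathways 9 were higher and 1 lower, with the YAP target Ankrd1 at 1.80, the factor Tead2 at 1.18 and the Notch target Hey1 at -2.04. Within the lower array set alone 5 of them were called higher, and without DKO array 1, 2 were lower. Of 12 retinoid, steroid and xenobiotic genes 6 were lower and 1 higher, and the call of the 1 higher gene was lost without WT array 3. Besides Cyp1b1, the retinol-oxidising Adh7 was at least 6.39-fold lower and the retinoic acid binding protein gene Crabp1 fell by 2.16 log2 units.

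Stress, cycle and housekeeping lists held smaller differences. Of 34 genes of endoplasmic reticulum stress and the ATF4 pathway, 13 were higher and 3 lower (median 0.22), and 7 were higher within the lower array set alone. Ddit3, the transcription factor CHOP, was at 8.03, 7.97 and 7.88 log2 units on the DKO arrays, against 6.75, 6.66 and 6.45 on the WT arrays (2.53-fold higher), and the ATF4 targets Chac1, Nupr1 and Trib3 rose by 1.27, 1.08 and 0.93. Of 53 cell cycle and DNA replication genes, 7 were higher and 14 lower (39.6% called, median -0.10), and Ccnd1, cyclin D1, was the 1 gene called at 2-fold or more (1.06). Among 33 p53 targets and CDK inhibitors 10 were higher and 4 lower, with Cdkn2b, the kinase inhibitor p15, at 1.43, and 1 of the 33 was lower without DKO array 2. Within the lower array set alone 3 cell cycle genes were higher and 6 lower. Of 36 oxidative phosphorylation genes 7 were called (19.4%), and of 31 ribosomal protein genes 4 were (12.9%), both under the 34.3% of the whole set. Leaving out single arrays changed these small counts, from 5 lower oxidative phosphorylation genes to 3 without DKO array 2 or WT array 2, and from 3 lower ribosomal protein genes to 1 without DKO array 1, DKO array 2 or WT array 1.

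Redox genes were mixed, with 6 of 34 NRF2 targets and glutathione genes higher and 9 lower, and the extremes were the transferase Gstm2 (1.98) and the carbonyl reductase Cbr3 (-2.26). Nqo1, the classical NRF2 target, was at least 1.69-fold lower. Of 25 immediate-early genes 5 were higher and 4 lower, with the ERK phosphatase Dusp4 at least 2.19-fold higher and Egr3 and Egr2 lower by differences of -1.21 and -1.09. With the replicate number as a block, 7 of the 25 were lower. Of 30 hypoxia and glycolysis genes 5 were higher and 7 lower, and 4 were lower without DKO array 3 or without WT array 1.

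Among 11 cartilage and bone genes 3 were higher, with Bmp4 at 1.21, and 6 lower, with the chondrocyte factors Sox9 at -1.12 and Sox5 at least 2.39-fold lower. The summed intensity of that whole list was 2612 to 2838 on the DKO arrays, against 3481 to 3749 on the WT arrays. Sox9 and Tnfrsf11b made up that gap, so it does not describe the rest of the list. Sox9 was at 9.06, 8.72 and 8.77 log2 units on the DKO arrays, against 10.19, 9.98 and 9.73 on the WT arrays. Twist2, a bright gene of the list, went the other way, at 10.29, 10.32 and 10.26 against 9.69, 9.87 and 9.92. Of 8 neural and glial genes 3 were higher and 4 lower. Nestin (Nes), Sox11 and Map2 rose by 1.11, 1.59 and 1.15 log2 units, with 0.30 and no call from the other probe of Map2, while Sox2 was at least 2.10-fold lower and Stmn2 fell as described. The sums of that list ran from 3803 to 3926 on the DKO arrays and from 3455 to 3840 on the WT arrays.

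**Figure D4:**
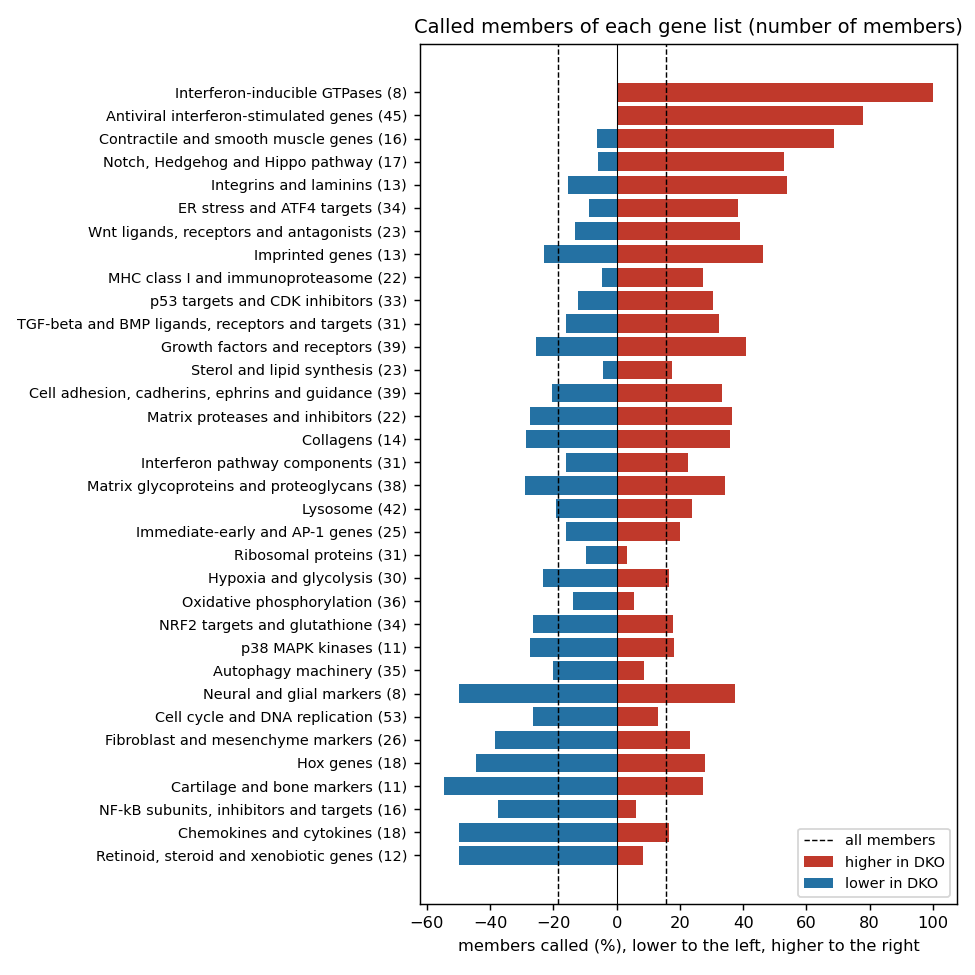
Percentage of each gene list's genes called higher (bars to the right) or lower (bars to the left) in untreated DKO cells, for lists with at least 8 genes in the set, with their number in brackets. Dashed lines mark 15.6% higher and 18.7% lower over all 8226 genes; the interferon-inducible GTPases reach 100% higher and the antiviral genes 77.8%.

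The arrays of IFNβ-treated cells are separate arrays that give the same genotype contrast after 6 h of IFNβ. They are not independent of the untreated ones, since same-numbered arrays of a genotype deviate together, as given below. There 31.4% of the 8226 genes were called, 1207 higher and 1380 lower. Of the 1286 genes higher in untreated DKO cells, 917 (71.3%) were also called higher after IFNβ, which is 76.0% of the genes called higher there, and 6 were called lower. Of the 1539 lower genes, 1001 (65.0%) were called lower again, 72.5% of the genes called lower there, and 2 were called higher. Among differences of at least 2-fold, 283 of 308 higher and 227 of 230 lower genes were called in the same direction. Over all 8226 genes the 2 differences correlated with a Pearson r of 0.89, across genes that are not independent and that share probes.

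Most of the largest resting differences were also present after treatment. After IFNβ the DKO minus WT difference was 5.31 log2 units for Csrp1, 4.21 for Col4a1, 3.03 for Ndn, -5.03 for Stmn2, -4.86 for Hoxc9 and -4.64 for Pdgfra. The interferon-stimulated genes as a list behaved otherwise. The median of the 45 antiviral genes was -0.03 log2 units after IFNβ, against 0.93 in untreated cells, with 9 higher and 6 lower, and that of the GTPases was -0.27, against 1.26. The test of the difference between the contrasts called 67 of the 8226 genes, 24 of them antiviral genes and 4 of them GTPases. Untreated and treated arrays of the same genotype and replicate number had deviations that correlated at 0.35 to 0.65. With genotype and number as a random replicate block, the test called 261 genes, which included the 67, with 35 antiviral genes and 8 GTPases.

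Isg15 had means of 13.36 log2 units in treated DKO cells and 13.33 in treated WT cells, and the resting difference of 2.23 was larger than the treated one of 0.04 (limma interaction -2.19, adjusted p = 0.0018). For Oasl2 the treated difference was -0.29, against 2.58 at rest (adjusted p = 0.0013). Ifi27l2a kept a difference of 3.06 after IFNβ, and its interaction did not pass the test (adjusted p = 0.45). Cxcl10 was higher at rest by 1.26 and lower after IFNβ by 0.74 log2 units in DKO cells (adjusted p = 0.002 for the interaction).

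**Figure D5:**
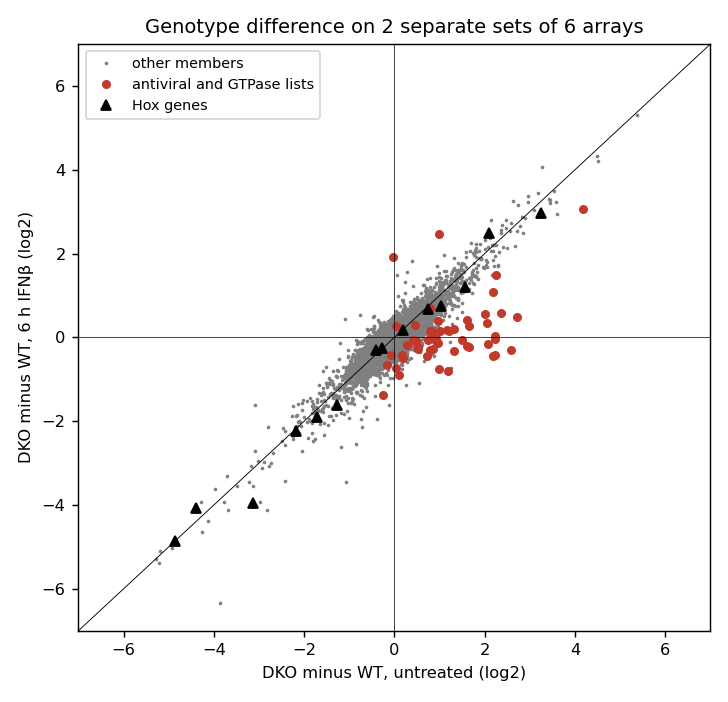
DKO minus WT log2 difference of each of the 8226 genes in untreated cells (x axis) and after 6 h of IFNβ (y axis), from 2 separate sets of 6 arrays, with the diagonal of equal difference. Hox genes (black triangles) lie near the diagonal, and most genes of the antiviral and GTPase lists (red) lie to the right of it, with antiviral medians of 0.93 untreated and -0.03 after IFNβ.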

How the data were processed

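RNA of 12 samples was measured on 12 Illumina mouse bead arrays with 45281 probes, after labelling with a TotalPrep kit, per the labels' protocols. The deposited intensities are not normalized and carry no background correction, and a detection p-value stands beside every intensity, per the file headers. The authors also deposited a log2 table, which by its values is quantile normalized without background subtraction and was used as an alternative; the software behind it is not stated.

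Intensities were corrected by normexp with the detection p-values (offset 16), quantile normalized and put on the log2 scale with limma 3.58.1 neqc in R 4.3.3. Probes with a detection p below 0.01 on 3 or more of the 12 arrays were retained (15856, of which 13737 carry 1 named gene), and each gene was read from 1 probe, the one with the highest mean. Of all probes, 34885 carry 1 gene, 18 several and 10378 none. One linear model with 4 group means over the 12 arrays, empirical Bayes moderation and Benjamini-Hochberg adjustment over 8898 genes gave the differences, DKO minus WT. A gene is called at an adjusted p under 0.05. The precision is limited by 3 arrays a group. The procedure was tested on simulated data.

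Genes named are the 15 largest called rises and falls detected on all 6 untreated arrays, the 12 largest lower bounds each way, and up to 6 called genes a list. The members, lists and rules were chosen with earlier results of these data known. Gene names come from the platform annotation matched to RefSeq, and promoters from RefSeq (GRCm38.p6).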

Additional observations from a re-analysis of the deposited data

Results flagged for a closer look

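Genes on the sex chromosomes lay outside the comparison and differed between the untreated genotypes. Xist was higher in DKO cells by 3.01 log2 units and was not detected on any WT array, and the X-linked Eif2s3x and Kdm6a had differences of 0.67 and 0.45. The Y-linked Eif2s3y and Kdm5d had differences of -3.84 and -1.12 and were not detected on any DKO array.

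For 18 named genes the DKO minus WT difference was not the same after 6 h of IFNβ as at rest, by limma's interaction test. The values below are the difference after IFNβ minus that in untreated cells, in log2 units. Among antiviral genes and GTPases it was -2.87 for Oasl2, -2.21 for Oasl1, -2.19 for Isg15, -2.01 for Igtp, -1.82 for Irgm2, -1.78 for Oas1g, -1.73 for Ifi47, -1.12 for Gvin1 and -0.75 for Trim30a. It was -1.99 for Cxcl10, -1.31 for Irf7, -1.23 for Tap1, -1.05 for Nfkbia and -1.29 for Tfap2a. The opposite sign was found for Ccdc68 (0.79), Traf1 (0.80), Foxq1 (1.48) and Egr2 (1.54).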

How the results depend on the processing

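Counts are given as higher and lower in untreated DKO cells, against 1286 and 1539 (308 and 230 at 2-fold). At an adjusted p under 0.01, 1842 genes were called, 940 of them lower. At 2-fold, the authors' log2 table and the fit without background correction gave 124 and 75 each, an offset of 50 gave 189 and 118, and the genes detected on all 6 arrays held 138 lower; an offset or uncorrected background shrinks log2 differences of dim probes by construction. The lower array set alone, with fewer arrays, called 1510 genes, 811 higher and 699 lower. Outside chromosomes 5, 7, 11 and 12, a choice made after seeing the data, 989 were lower, among fewer genes. Leaving out 1 array gave 2207 to 2673 called genes, 1074 to 1162 higher and 1133 to 1511 lower, and 307 to 325 higher and 212 to 257 lower at 2-fold. With the replicate number as a block, 3336 genes were called, 1499 higher and 1837 lower. Same-numbered untreated arrays of the 2 genotypes had deviations that correlated at -0.29 to 0.44, and those of the same array set at 0.32 to 0.44, so the numbers were not taken as a pairing of the genotypes. Untreated and treated arrays of the same genotype and number correlated at 0.35 to 0.65, against -0.48 to 0.26 for other numbers. With genotype and number as a random replicate block, an alternative added after seeing the data, the interaction called 261 genes against 67, and 1200 genes were higher and 1360 lower after IFNβ. Over the 23 settings the median difference stayed between -0.26 and -0.14 on chromosome 5, 0.10 and 0.20 on chromosome 7, -0.21 and -0.12 on chromosome 11 and -0.24 and -0.12 on chromosome 12. Of 249 named called genes, 210 were called under every setting that held them. The setting of genes detected on all 6 untreated arrays left out genes without such a probe, Ulk1 and Ulk2 among them, and this was not counted as a lost call. Adam17 reversed, at -0.92 from its brightest probe and 0.32 with the mean over its probes, since its other probe was called the opposite way, at 1.56.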
